A study of Mus musculus with 11 samples.

Results

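Apoe and 6 further lipid handling genes, Lpl, Abca1, Abcg1, Lrp1, Soat1 and Nr1h3, were followed through single-nuclei RNA-seq libraries of mouse cortex. They were taken by symbol from the 31053 genes of the matrices, and all 7 were found. The rule used no measured value, but the members were chosen with earlier results of these data known. The study asked how microglial NF-κB signaling shapes the response to tau. Libraries came from 11 mice of 4 genotypes. The labels give all of them as female, whereas the study's reporting statement names male mice for RNA-seq. In the nuclei used, Xist was at 792 to 1490.3 CPM (UMIs per 1000000 UMIs) in all 11 libraries, and Uty, Eif2s3y, Ddx3y and Kdm5d of the Y chromosome were at most at 1.38 CPM. The ikbkb+/+ mice (n = 4, 9.8 to 10.85 months) carried no tau transgene. The ikbkb+/+;P301S+ mice (n = 3, 9.15 to 10.75 months) carried the PS19 transgene, human tau with the P301S mutation. In the ikbkb-/-;P301S+ mice (n = 2, 8.39 and 9.15 months) floxed Ikbkb, which encodes the NF-κB activating kinase IKKβ, was deleted in cells with the tamoxifen-inducible Cx3cr1-CreERT2 allele. In the ikbkbCA;P301S+ mice (n = 2, 9.8 and 10.85 months) the same Cre released a constitutively active IKKβ from the R26 locus. Tamoxifen was given to all groups, controls without Cre included. The Cre allele replaces 1 copy of Cx3cr1, which the controls keep, and it is also active in other macrophages that express Cx3cr1. The first 2 replicates of ikbkb+/+ and of ikbkb+/+;P301S+ and both ikbkb-/-;P301S+ mice came from the floxed line, and the other mice came from the active IKKβ line.

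Apolipoprotein E is the main lipid carrier of the brain. In the cortex it is made chiefly by astrocytes, and microglia raise it when they respond to pathology. ABCA1 and ABCG1 move cholesterol out of the cell onto such particles, and LXRα, encoded by Nr1h3, is a nuclear receptor that senses oxysterols and switches on Apoe, Abca1, Abcg1 and Lpl. LRP1 is an endocytic receptor for ApoE particles that also takes up tau. Lipoprotein lipase, encoded by Lpl, releases fatty acids from triglycerides, and SOAT1 esterifies cholesterol for storage in lipid droplets.

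The 2 members that passed the test between genotypes were Lrp1 and Soat1, both in microglia-like nuclei, and the 250 bases before their RefSeq starts are shown because the kinase manipulated in these mice acts on transcription. Both are printed 5′ to 3′ on the gene's strand, which is the minus strand for both, and capitals mark a match to GGGCGG, the GC box, on either strand.
Lrp1, GRCm38.p6 chr10:127621149-127621398: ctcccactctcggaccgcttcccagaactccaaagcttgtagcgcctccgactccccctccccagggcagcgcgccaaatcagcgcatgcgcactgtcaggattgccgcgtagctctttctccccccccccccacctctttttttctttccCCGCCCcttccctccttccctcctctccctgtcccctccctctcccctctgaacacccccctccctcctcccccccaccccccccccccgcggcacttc
Soat1, GRCm38.p6 chr1:156474329-156474578: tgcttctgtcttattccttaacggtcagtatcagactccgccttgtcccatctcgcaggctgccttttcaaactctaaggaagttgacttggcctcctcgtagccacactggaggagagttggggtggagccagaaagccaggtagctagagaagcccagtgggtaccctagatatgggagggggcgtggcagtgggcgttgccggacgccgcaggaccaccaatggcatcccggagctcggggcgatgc
The Lrp1 window held 1 GC box, on the reverse strand from base -99 to base -94 counted from the start, and the Soat1 window held none. Neither window held AGGTCA, the half-site bound by LXR and its partners, or the 10-base NF-κB consensus. GGGCGG stood in 32.9%, AGGTCA in 13.8% and the NF-κB consensus in 7.01% of 27025 windows of this length, 1 per RefSeq gene.

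In mm10 coordinates, Apoe lies on chromosome 7 from 19696109 to 19699188, Lpl on chromosome 8 from 68880491 to 68907448 and Lrp1 on chromosome 10 from 127538161 to 127621148. Abca1 lies on chromosome 4 from 53030787 to 53159895, Abcg1 on chromosome 17 from 31057675 to 31117988, Soat1 on chromosome 1 from 156424525 to 156474331 and Nr1h3 on chromosome 2 from 91184061 to 91202834. All 7 are protein-coding genes. Nr1h3 overlaps Gm13783 and Abcg1 overlaps Gm25447 on the same strand, so reads there may have been split or lost. Nuclear RNA was counted over whole transcripts, introns included.

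Depth was 72007219 to 93205362 UMIs per library, each UMI marking 1 captured RNA molecule, over 7500 to 12315 barcodes. Pairs of libraries shared 0.193 to 0.425% of the smaller library's barcodes. After limits on genes and mitochondrial reads and removal of called doublets, 103065 nuclei were used, of which 4486 were microglia-like and 6872 astrocyte-like. All 11 microglia markers and all 10 astrocyte markers were raised in the clusters so named. Endothelial-like nuclei were left out because 3 libraries had fewer than 10 of them. Ikbkb in microglia-like nuclei was at 124 to 155 CPM in ikbkb+/+, 133 to 148 in ikbkb+/+;P301S+, 110 to 113 in ikbkb-/-;P301S+ and 151 to 165 CPM in ikbkbCA;P301S+ mice. These 3′ counts do not show whether the floxed part was missing from the transcripts.

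Levels across cell types were compared first. For each mouse the UMIs of a gene were summed over the nuclei of a type and divided by all UMIs of those nuclei, as CPM. These levels are a description without a test. Neighbouring types in an order are called apart where the paired log2 difference over the 11 mice was larger than its SD. Before the log a prior of 2 UMIs, scaled to depth, was added to each sum. The prior weighs most where a type holds few UMIs.

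Apoe was highest in astrocyte-like nuclei, at 965 ± 218 CPM (SD, n = 11; range 542 to 1266). Fibroblast-like nuclei followed at 316 ± 150 CPM, microglia-like nuclei at 289 ± 205, oligodendrocyte-like nuclei at 273 ± 61.6 and oligodendrocyte precursor-like nuclei at 257 ± 68.0 CPM. Astrocytes exceeded the next type in 11 of 11 mice, by 1.68 ± 0.59 log2 units (SD), whereas the 4 types that came next did not differ in turn beyond the SD. Mural-like nuclei held 78.8 ± 38.9 CPM, and the 3 neuronal types held 9.10 to 13.5 CPM on average. Per nucleus, which does not divide by depth, astrocyte-like nuclei held 4.11 ± 0.89 Apoe UMIs, microglia-like nuclei 0.587 ± 0.430 and excitatory neuron-like nuclei 0.106 ± 0.020. Microglia had the widest range between mice of these glia, from 47.7 to 812 CPM, although the SD in CPM was larger in astrocytes. Replicate 4 of ikbkb+/+ had the lowest Apoe CPM of all mice in 7 of the 9 types. Without it the microglial log2 difference for tau was 1.22 (edgeR, adjusted p = 0.386), beside 1.57 with it.

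**Figure D1:**
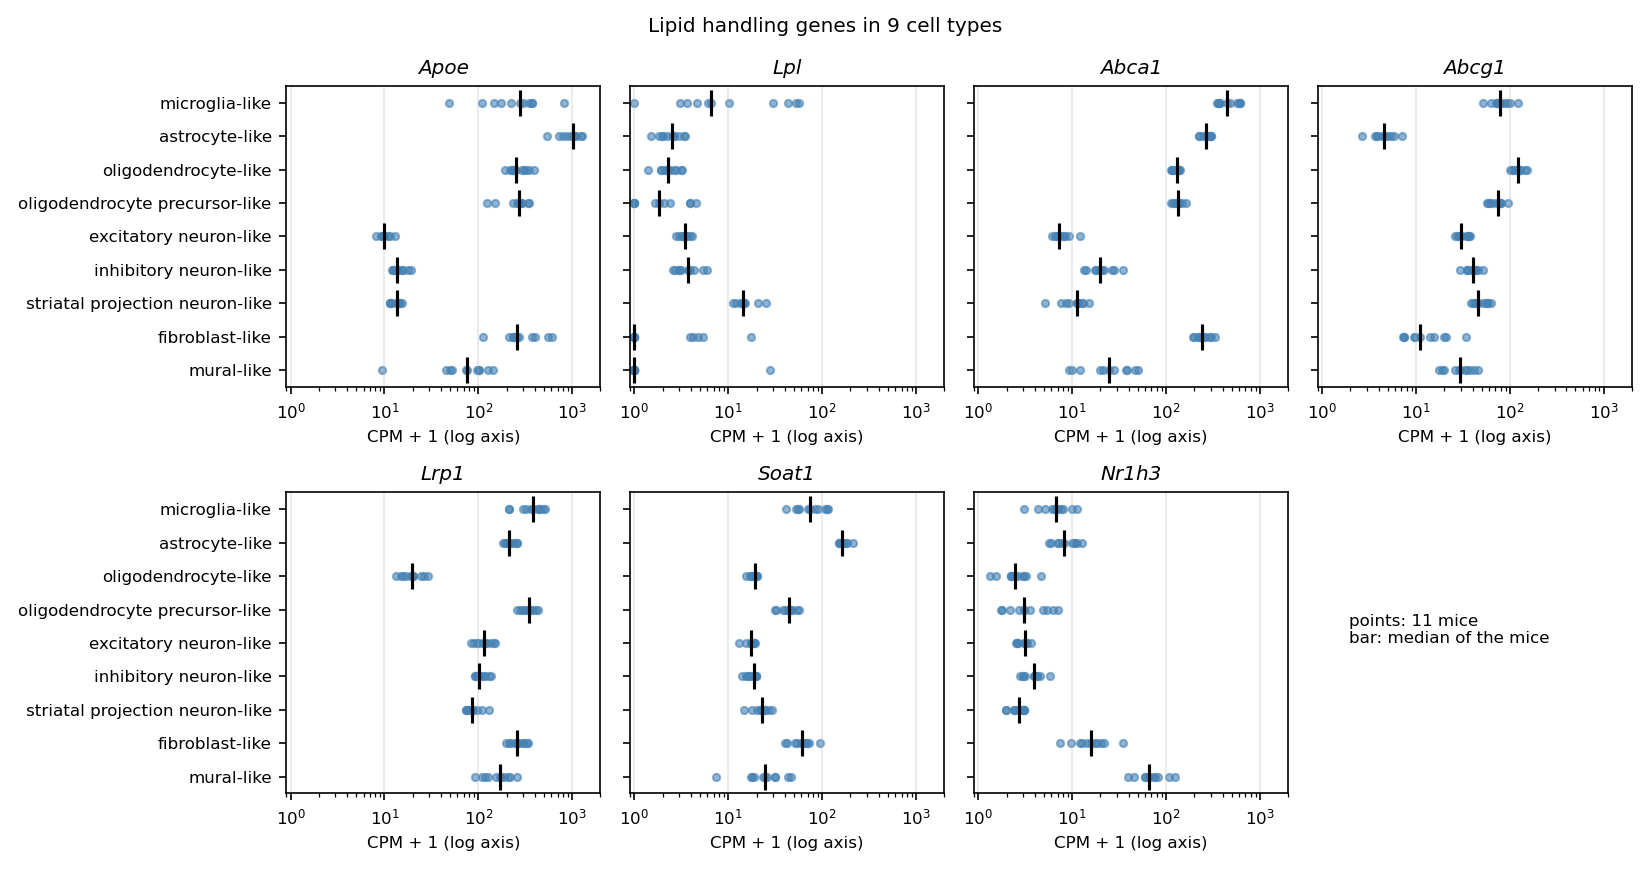
CPM plus 1 on a log axis for each gene in 9 cell types; points are the 11 mice and the bar is their median. Apoe stood highest in astrocyte-like nuclei (542 to 1266 CPM), Abca1 in microglia-like nuclei (347 to 612 CPM) and Nr1h3 in mural-like nuclei (38.2 to 124 CPM).

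Lpl was low in all types. Its mean was 18.8 ± 21.8 CPM in microglia-like and 14.4 ± 4.01 CPM in striatal projection neuron-like nuclei. The microglial mean rested on a few mice, since Lpl was higher in microglia than in striatal neurons in 4 of 11 mice. Lpl was at 1.47 ± 0.64 CPM in astrocyte-like nuclei, with 44 UMIs over all mice.

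The receptor Lrp1 was at 373 ± 104 CPM in microglia-like nuclei and 340 ± 56.1 CPM in oligodendrocyte precursor-like nuclei, which did not differ beyond the SD of the paired difference. It was at 265 ± 47.4 CPM in fibroblast-like, 218 ± 26.8 in astrocyte-like, 164 ± 50.7 in mural-like and 115 ± 22.2 CPM in excitatory neuron-like nuclei. Oligodendrocyte-like nuclei held 19.1 ± 5.01 CPM, below every other type in every mouse.

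Among the exporters, Abca1 was highest in microglia-like nuclei at 467 ± 112 CPM, and its range over the mice did not overlap that of astrocyte-like nuclei at 269 ± 28.6 CPM. Fibroblast-like nuclei held 249 ± 44.8 CPM of Abca1 and did not differ from astrocytes beyond the SD. Abcg1 had another order. It was highest in oligodendrocyte-like nuclei at 122 CPM (mean, n = 11; range 100 to 151), then in microglia-like nuclei at 80.2 ± 19.0 and oligodendrocyte precursor-like nuclei at 71.3 ± 11.5 CPM, and the last of these did not differ from microglia beyond the SD. Astrocyte-like nuclei held only 3.62 ± 1.19 CPM of Abcg1, below each of the other 8 types.

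Soat1 was highest in astrocyte-like nuclei at 167 ± 17.7 CPM, above microglia-like nuclei at 77.2 ± 25.8 CPM in 11 of 11 mice and with no overlap of the ranges. The regulator Nr1h3 was highest in mural-like nuclei at 71.2 CPM (mean, n = 11; range 38.2 to 124), above the 15.8 ± 7.31 CPM of fibroblast-like nuclei in 11 of 11 mice. Astrocyte-like nuclei held 7.81 ± 2.29 and microglia-like nuclei 5.89 ± 2.39 CPM of Nr1h3, the latter from 60 UMIs over all mice. Astrocytes were higher in 10 of 11 mice, but the paired log2 difference of 0.069 ± 0.57 (SD) was not larger than its SD. It includes the prior, which weighs more on the smaller microglial sums.

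Whether tau changed these genes in microglia was asked in ikbkb+/+;P301S+ against ikbkb+/+ mice. Apoe in microglia-like nuclei was 144, 275, 223 and 47.7 CPM in the ikbkb+/+ mice and 298, 377 and 812 CPM in the ikbkb+/+;P301S+ mice. Each P301S+ mouse lay above each mouse without tau, and replicate 3 of the P301S+ mice stood far above the other two. On the log2 scale the difference was 1.57 ± 0.42 (SE), and it did not pass the test across all genes (edgeR quasi-likelihood, adjusted p = 0.161). Without P301S+ replicate 3 the difference was 1.0 (edgeR, adjusted p = 0.955).

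Lpl was 5.07, 3.60, 0 and 5.62 CPM in the ikbkb+/+ mice, together 8 UMIs, and 2.59, 55.9 and 52.2 CPM in the ikbkb+/+;P301S+ mice. Replicates 2 and 3 of the P301S+ mice were high, and replicate 1, with 1 UMI, lay within the mice without tau. Its log2 fold change of 3.42 ± 0.79 did not pass (edgeR, adjusted p = 0.114). It passed without P301S+ replicate 1, at 3.78 (adjusted p = 0.00932), and when either knockout or either active kinase mouse was left out of the shared fit, at 3.41 to 3.43 (adjusted p = 0.0320 to 0.0477).

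Soat1 was 40.5, 53.9, 52.1 and 56.2 CPM in the ikbkb+/+ mice and 69.9, 72.4 and 112 CPM in the ikbkb+/+;P301S+ mice. The groups did not overlap. Its log2 fold change was 0.77 ± 0.20 (edgeR, adjusted p = 0.140), and 0.47 without P301S+ replicate 3 (adjusted p = 0.989).

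The other members showed small differences. The log2 fold change was 0.01 ± 0.18 for Abca1 (edgeR, adjusted p = 0.996), -0.17 ± 0.21 for Abcg1 and -0.08 ± 0.15 for Lrp1. Nr1h3 had too few UMIs in microglia to be tested, at 2.08 to 7.02 CPM without tau and 3.29 to 10.4 CPM with it. Thus 0 of the 6 members tested passed with edgeR, against 4 of all 8977 genes (0.0446%), 3 of the 6 had an unadjusted p under 0.05, beside 8.28% of all genes, and DESeq2 called 0 of them. The median log2 fold change of the 6 was 0.39, beside -0.01 over all genes. With the comparison made within each breeding line, replicate 3 was the only P301S+ mouse of the active line. It then weighed as much as P301S+ replicates 1 and 2 together. For these 3 members the log2 fold change was 1.65 for Apoe, 3.41 for Lpl and 0.78 for Soat1 in that fit.

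**Figure D2:**
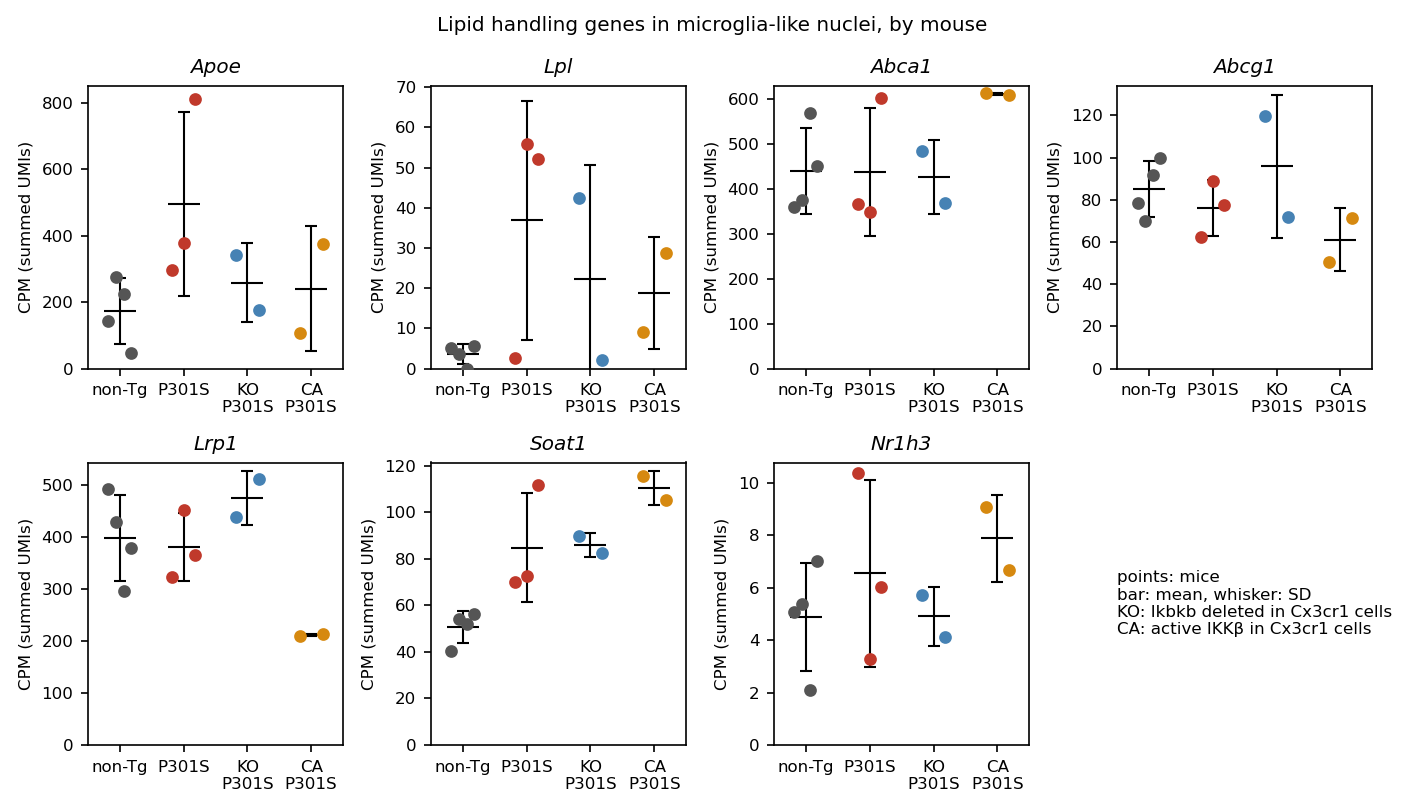
CPM of each gene in microglia-like nuclei by genotype, on linear axes from 0; points are mice, the bar is the mean and the whisker the SD (n = 4, 3, 2 and 2). Both mice with active IKKβ lay at 210 and 213 CPM of Lrp1, below all other mice, and all 7 mice with P301S tau lay above the 4 mice without it in Soat1.

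In the ikbkb+/+ mice part of the microglial Apoe came from few nuclei. Border macrophages, the macrophages of vessels and meninges, share many transcripts with microglia, and 495 of the 4486 microglia-like nuclei held 2 or more UMIs of 8 of their markers (Mrc1, Cd163, Lyve1, Pf4, F13a1, Ms4a7, Cbr2 and Stab1). These markers together stood at 256 to 710 CPM in ikbkb+/+, 276 to 632 in ikbkb+/+;P301S+, 438 to 559 in ikbkb-/-;P301S+ and 223 to 398 CPM in ikbkbCA;P301S+ mice. The limit of 2 UMIs was met by 84 of 1323 microglia-like nuclei in ikbkb+/+;P301S+, 122 of 759 in ikbkb-/-;P301S+ and 159 of 1291 in ikbkbCA;P301S+ mice. In ikbkb+/+ mice, 130 of 1113 microglia-like nuclei met this limit, and they held 206 of the 351 Apoe UMIs. Their Apoe was 1099, 1120, 1222 and 45.3 CPM in replicates 1 to 4, against 58.0, 129, 78.6 and 48.1 CPM in the remaining nuclei of the same mice. In the ikbkb+/+;P301S+ mice the nuclei that met the limit held 766, 1590 and 1289 CPM. They held 421 and 299 CPM in the ikbkb-/-;P301S+ mice, and 83.4 and 778 CPM in the ikbkbCA;P301S+ mice.

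Without the nuclei with border macrophage UMIs, Apoe was 227, 302 and 786 CPM in the ikbkb+/+;P301S+ mice. The gap to the ikbkb+/+ mice widened to 2.55 ± 0.39 on the log2 scale, which passed the test (edgeR, adjusted p = 0.00556). This set rests on a fixed limit of UMIs, which deeper nuclei can meet more easily. Median depth was 1692.5 to 2136 UMIs per microglia-like nucleus in ikbkb+/+ and 1443 to 2021 in ikbkb+/+;P301S+ mice. The fit in this set was not repeated without P301S+ replicate 3. In the same nuclei Apoe was 330 and 134 CPM in ikbkb-/-;P301S+ and 111 and 313 CPM in ikbkbCA;P301S+ mice, so only in ikbkbCA;P301S+ replicate 1 and in ikbkb+/+ replicate 4 did the nuclei left out hold less Apoe than the rest. Its log2 fold change against ikbkb+/+ mice was then 1.66 ± 0.45 for the knockout (edgeR, adjusted p = 0.824) and 1.40 ± 0.44 for the active kinase (adjusted p = 0.0799). Over all microglia-like nuclei these values were 0.65 (edgeR, adjusted p = 0.949) and 0.46 (adjusted p = 0.763). The value for the active kinase turned to -0.68 without ikbkbCA;P301S+ replicate 2, and the value for the knockout was 0.031 without ikbkb-/-;P301S+ replicate 1. Lpl at 3.34 ± 0.74 (adjusted p = 0.0641) and Soat1 at 0.77 ± 0.21 (adjusted p = 0.177) kept their size between the P301S+ and the non-transgenic mice. When instead nuclei with 2 or more UMIs of astrocyte markers were left out, Apoe was 184, 312, 265 and 57.6 CPM in the ikbkb+/+ mice and 296, 405 and 871 CPM in the ikbkb+/+;P301S+ mice. These groups overlapped, since P301S+ replicate 1 lay below ikbkb+/+ replicate 2, and the log2 fold change was 1.41 (edgeR, adjusted p = 0.207).

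**Figure D3:**
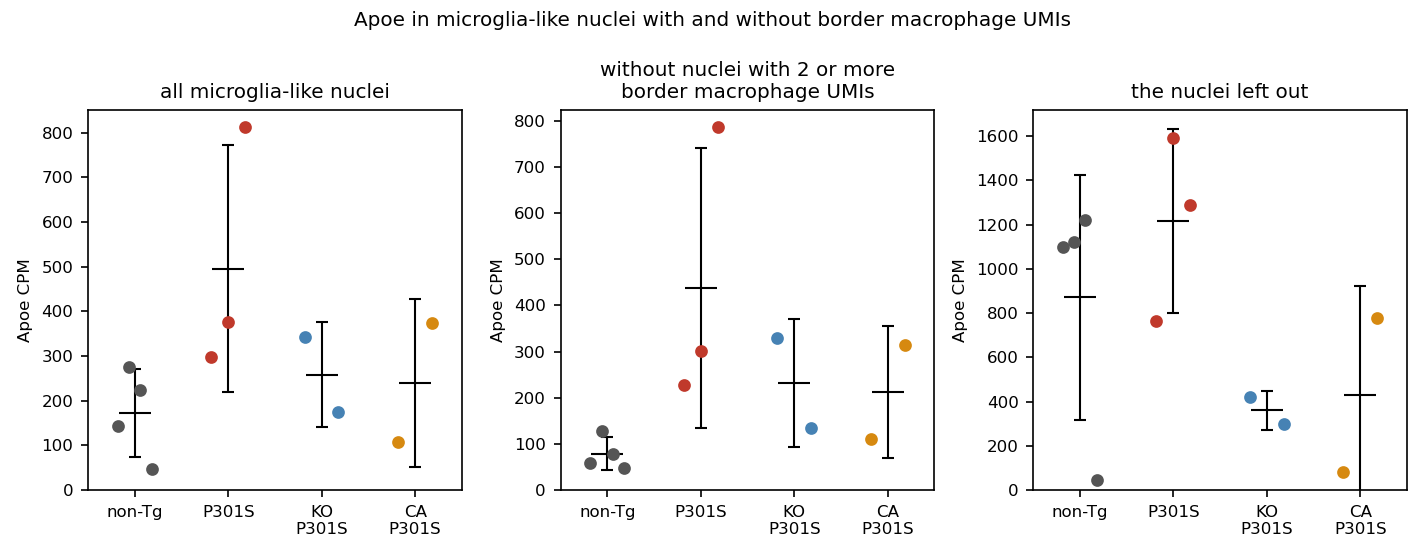
Apoe CPM by mouse in all microglia-like nuclei, in those with fewer than 2 border macrophage UMIs, and in the nuclei left out, on linear axes from 0; the bar is the mean and the whisker the SD. In the remaining nuclei the ikbkb+/+ mice lay at 48.1 to 129 CPM and the ikbkb+/+;P301S+ mice at 227 to 786 CPM.

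The share of microglia-like nuclei with an Apoe UMI was compared after each nucleus was thinned to 1000 UMIs, which left out 58 of the 4486 nuclei. It was 9.69, 13.7, 8.08 and 4.89% in the ikbkb+/+ mice and 15.1, 17.1 and 34.0% in the ikbkb+/+;P301S+ mice. These groups did not overlap, and the exact two-sided permutation test over mice gave p = 0.0286, the smallest it can give, and an adjusted p of 0.525 over 42 tests. Unthinned, the share was 20.9% on average over the 11 mice, whose median depth was 1443 to 2471 UMIs per nucleus. In excitatory neuron-like nuclei, which should hold little Apoe, the thinned share was 1.04% and the unthinned share 9.48% on average (range 7.25 to 12.2%), at median depths of 9042 to 14560 UMIs per nucleus. Thinning removes more UMIs, of any source, from the deeper neurons than from microglia. Free RNA in the droplets was not measured, so neither share tells it apart from transcripts of the nuclei. Unthinned, the microglial shares of 12.2% in replicate 1 and 8.51% in replicate 4 of ikbkb+/+ lay within the range of the neurons. Whether the share of replicate 4 was background was not tested. Thinned, it was 4.89%, and the excitatory neuron-like nuclei held 0.736 to 1.95%. In replicate 1 the 19 nuclei with border macrophage UMIs held 36 Apoe UMIs, at 1099 CPM. Unthinned shares of ikbkb+/+ replicates 2 and 3, at 17.1 and 12.7%, lay above the unthinned range of the neurons. So did those of the ikbkb+/+;P301S+ mice, at 19.2, 22.7 and 47.5%.

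Whether loss of IKKβ changed these genes under tau was asked in ikbkb-/-;P301S+ against ikbkb+/+;P301S+ mice. In the knockout mice microglial Apoe was 342 and 175 CPM, Lpl 42.4 and 2.06 CPM and Soat1 89.7 and 82.2 CPM. In Apoe and Lpl replicate 1 lay within the range of the P301S+ mice and replicate 2 within that of the mice without tau, whereas in Soat1 both lay within the P301S+ range. Lrp1 was 439 and 512 CPM and Abcg1 120 and 72.0 CPM. None of the 6 members tested passed: edgeR called 0 of them and 0 of all 8977 genes (0%), no member had an unadjusted p under 0.05, beside 9.08% of all genes, and DESeq2 called 0. The log2 fold change was -0.92 ± 0.48 for Apoe (edgeR, adjusted p = 0.589) and 0.31 ± 0.18 for Lrp1 (adjusted p = 0.625). The Apoe value was -1.54 without ikbkb-/-;P301S+ replicate 1, -0.57 without its replicate 2 and -0.35 without replicate 3 of ikbkb+/+;P301S+, and -0.35 within the floxed line. Against ikbkb+/+ mice 0 of the 6 members and 0% of all genes passed with edgeR, 2 members had an unadjusted p under 0.05, beside 4.72% of all genes, and DESeq2 called 0. These 2 were Soat1 at 0.74 ± 0.22 and Lpl at 2.85 ± 0.89 (edgeR, adjusted p = 0.918 for both). The direction of Lpl turned on 1 mouse, since it was -0.82 without ikbkb-/-;P301S+ replicate 1.

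Whether active IKKβ changed them was asked in ikbkbCA;P301S+ against ikbkb+/+;P301S+ mice. Lrp1 was 210 and 213 CPM with the active kinase and 324, 452 and 364 CPM with P301S tau alone. It was 491, 428, 296 and 379 CPM in ikbkb+/+ mice, so the active kinase mice lay below all other mice. Lrp1 fell by 0.88 on the log2 scale (-0.88 ± 0.18, adjusted p = 0.0127 in edgeR). Of the 6 members, 3 had an unadjusted p under 0.05 (edgeR) in this comparison, beside 8.78% of all genes. Lrp1 was the 1 member of 6 that passed, while edgeR called 1.51% of all genes. Without replicate 2 of ikbkb+/+;P301S+ the change was -0.73 (edgeR, adjusted p = 0.110), and without ikbkbCA;P301S+ replicate 1 or 2 it was -0.85 (adjusted p = 0.105) or -0.87 (adjusted p = 0.104). Within the active line alone, where 1 ikbkb+/+;P301S+ mouse, replicate 3, stood against the 2 active kinase mice, it was -0.78 ± 0.19 (edgeR, adjusted p = 0.0525). A single mouse has no spread of its own, so this SE assumes that it varies like the other groups of the fit.

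The share of microglia-like nuclei with an Lrp1 UMI after thinning was 17.7 and 19.3% in ikbkbCA;P301S+ mice and 28.7, 33.9 and 28.9% in ikbkb+/+;P301S+ mice. These ranges did not overlap, but 2 against 3 mice cannot go below p = 0.1 in the exact permutation test, which is the p found (adjusted p = 0.525). Excitatory neuron-like nuclei, which express Lrp1, held 11.1% on average.

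Against ikbkb+/+ mice 2 of 6 members passed with active IKKβ, where edgeR called 3.78% of all genes. Here 5 of the 6 had an unadjusted p under 0.05 (edgeR), beside 13.5% of all genes. Lrp1 fell by 0.95 on the log2 scale (-0.95 ± 0.18, adjusted p = 0.00228 in edgeR). Soat1, at 115 and 105 CPM in the active kinase mice, rose by 1.06 ± 0.20 (edgeR, adjusted p = 0.00219). Within the active line Lrp1 was at -0.72 ± 0.17 (edgeR, adjusted p = 0.0149) and Soat1 at 0.99 ± 0.22 (adjusted p = 0.00844). Soat1 was not shown to differ between ikbkbCA;P301S+ and ikbkb+/+;P301S+ mice, at 0.28 ± 0.19 on the log2 scale (edgeR, adjusted p = 0.811), and within the active line, against replicate 3 alone, which had the highest Soat1 of its group, the value was -0.01 ± 0.21. The Cre allele is absent from both control genotypes. The ikbkb-/-;P301S+ mice carry it as well, and their Lrp1, at 439 and 512 CPM, lay above that of both active kinase mice, at 210 and 213 CPM, while their Soat1, at 89.7 and 82.2 CPM, lay below. Replicate 2 of ikbkb-/-;P301S+ also had the highest Lrp1 of all mice in astrocyte-like and oligodendrocyte-like nuclei. The same held in inhibitory and striatal projection neuron-like nuclei. Whether the Cre allele bears on either gene was not tested.

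Microglial Abca1 was 612 and 608 CPM in the active kinase mice, 365, 347 and 602 in ikbkb+/+;P301S+ mice and 360, 374, 568 and 451 CPM in ikbkb+/+ mice. The active kinase mice were the highest of these, at 0.43 ± 0.20 on the log2 scale against P301S+ (edgeR, adjusted p = 0.535). Without replicate 3 of ikbkb+/+;P301S+, the 1 mouse of that genotype from the active line, it was 0.75 and passed (edgeR, adjusted p = 0.0291). Within breeding lines it was 0.027 (edgeR, adjusted p = 0.995) and with line as a covariate 0.11. Without P301S+ replicate 2 it was 0.29. Abcg1 was 50.7 and 71.6 CPM with the active kinase and lay at -0.53 ± 0.22 against ikbkb+/+ mice (edgeR, adjusted p = 0.265). With 1 mouse left out this Abcg1 value ran from -0.78 to -0.29. Apoe, at 107 and 373 CPM, and Lpl, at 9.06 and 28.8 CPM, had log2 fold changes of -1.11 ± 0.47 (edgeR, adjusted p = 0.418) and -1.18 ± 0.58 (adjusted p = 0.591) against P301S+ mice. Both moved with single mice. Without ikbkbCA;P301S+ replicate 1 they were -0.45 and -0.54, and without its replicate 2 they were -2.26 and -2.20. Apoe was -0.54 without P301S+ replicate 3 and -1.75 within the active line, against that replicate alone. In Apoe replicate 1 lay below all P301S+ mice and replicate 2 within their range, and in Lpl both lay within it.

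**Figure D4:**
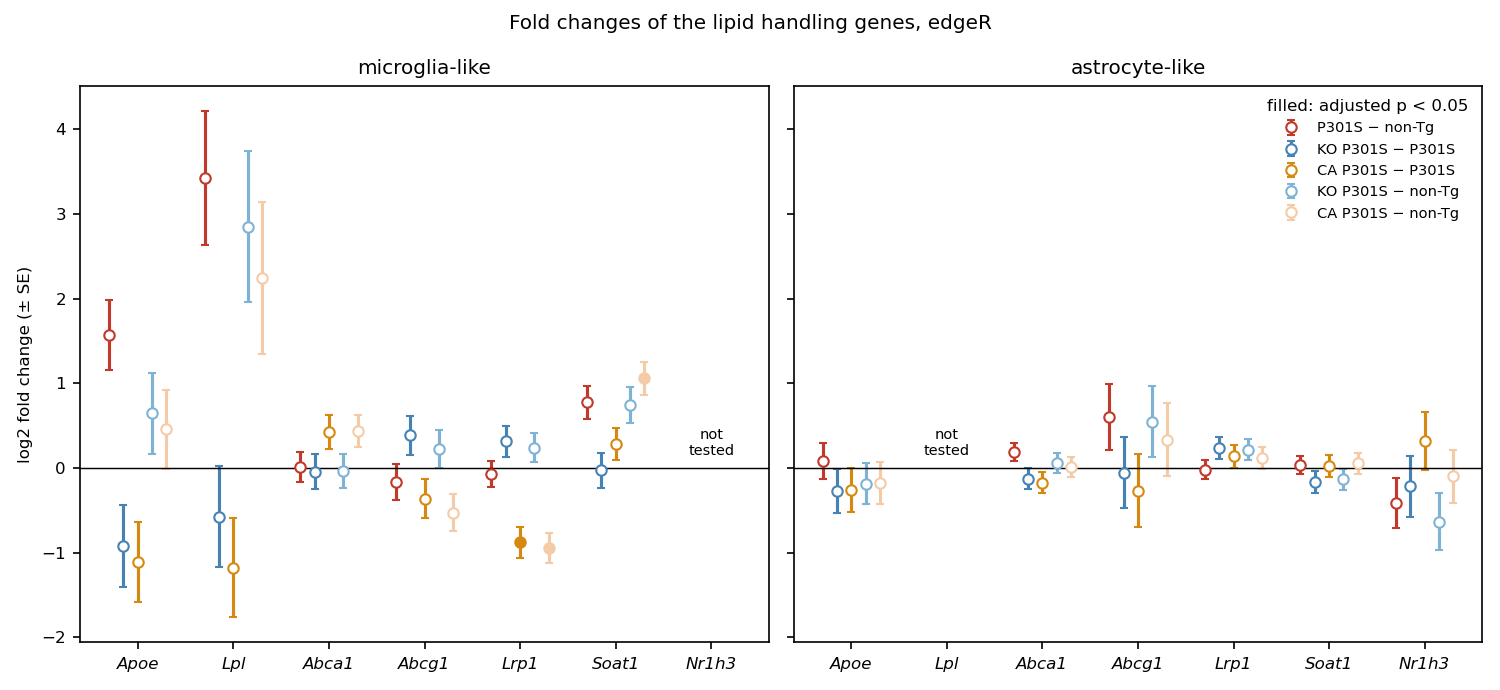
Log2 fold change with its SE for each gene and comparison in microglia-like and astrocyte-like nuclei; filled points passed an adjusted p of 0.05 in edgeR. Filled points are Lrp1 in both comparisons of the active kinase (-0.88 and -0.95) and Soat1 against ikbkb+/+ mice (1.06), and none are in astrocytes.

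In astrocyte-like nuclei, where the manipulated kinase was not targeted, none of the 6 members tested passed in any of the 5 comparisons: edgeR called 0 members and 0% of 12194 genes each time, no member had an unadjusted p under 0.05, beside 4.79 to 9.85% of all genes, and DESeq2 called 0. Lpl was too low there to be tested. Astrocytic Apoe was 1266, 1055, 1047 and 542 CPM in ikbkb+/+, 875, 1237 and 1094 in ikbkb+/+;P301S+, 789 and 978 in ikbkb-/-;P301S+ and 1011 and 725 CPM in ikbkbCA;P301S+ mice. All 4 groups overlapped. The log2 fold change was 0.08 ± 0.22 for tau (edgeR, adjusted p = 0.993), -0.27 ± 0.26 for the knockout and -0.26 ± 0.26 for the active kinase. With 1 mouse left out the knockout value ran from -0.44 to -0.12 and the active kinase value from -0.53 to -0.024. Soat1 and Lrp1 varied little between mice in astrocytes, at 149 to 211 and 180 to 260 CPM. Abca1 ranged from 224 to 304 CPM, and the log2 difference for tau was 0.18 ± 0.10 (edgeR, adjusted p = 0.956).

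The share of astrocyte-like nuclei with an Abca1 UMI, thinned to 1000 UMIs, was 23.3, 22.9, 22.0 and 19.7% in ikbkb+/+ and 25.1, 25.5 and 24.6% in ikbkb+/+;P301S+ mice. It was 22.5 and 22.4% in ikbkb-/-;P301S+ and 19.96 and 22.8% in ikbkbCA;P301S+ mice, so each P301S+ mouse with unaltered Ikbkb lay above all other mice. The difference for tau was 3.09 percentage points (exact two-sided permutation test, p = 0.0286, the smallest it can give), and those for the knockout and the active kinase against P301S+ mice were -2.57 and -3.66 points (exact permutation test, p = 0.1 for both, also the smallest it can give). None passed over the 42 tests (adjusted p = 0.525 for all 3, exact permutation). The directions of the last 2 were not stable. Without thinning the 3 differences were 2.23, 2.46 and 2.92 points, and with thinning to 500 UMIs 0.34, 0.0612 and -1.04 points.

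**Figure D5:**
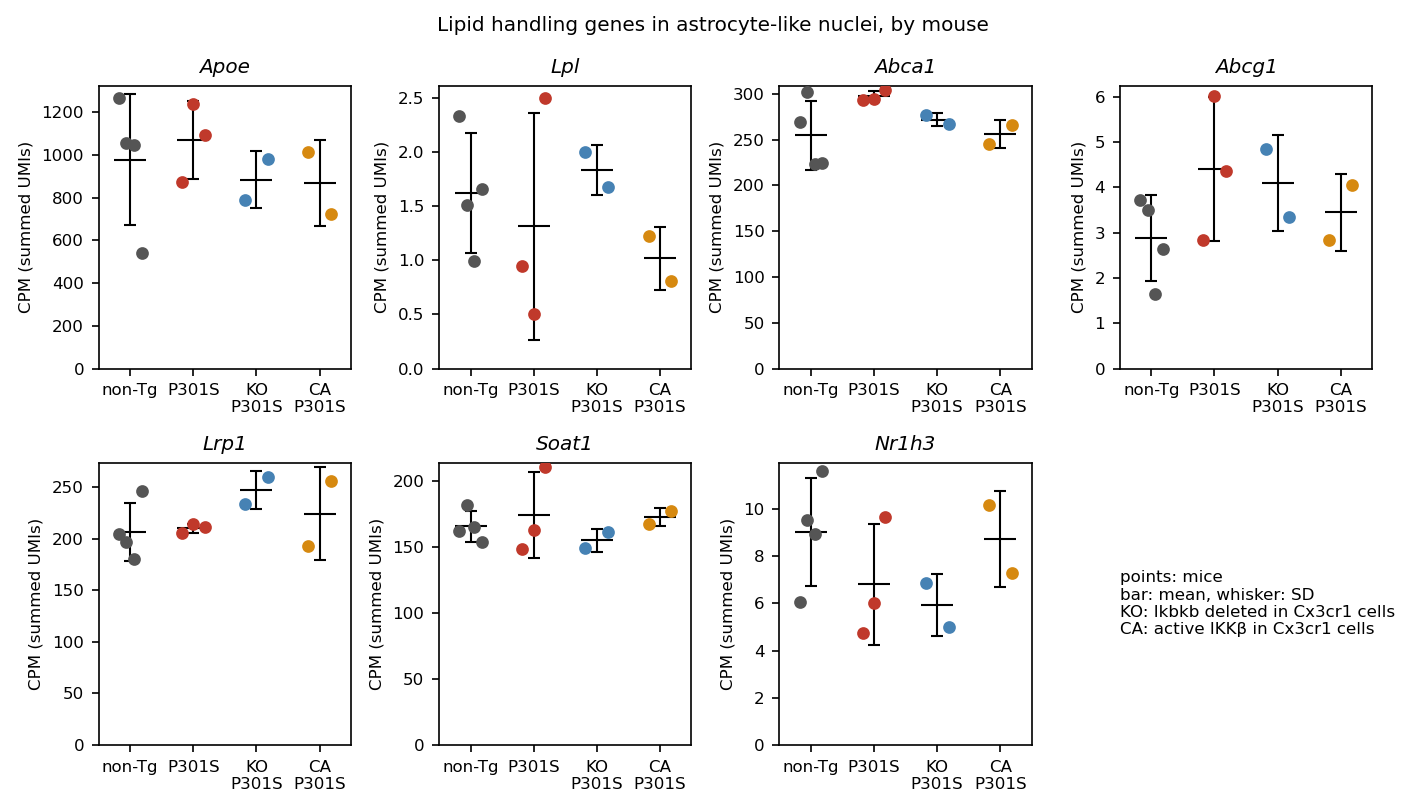
CPM of each gene in astrocyte-like nuclei by genotype, on linear axes from 0; points are mice, the bar is the mean and the whisker the SD. The genotypes overlap in Apoe (542 to 1266 CPM over all mice), Lrp1 (180 to 260 CPM) and Soat1 (149 to 211 CPM).

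The change in microglia was set against the change in astrocytes of the same mice. The measure was the log2 ratio of a gene's CPM in the 2 types, with the same prior of 2 UMIs. For Soat1 the ratio was -1.92, -1.70, -1.61 and -1.40 in ikbkb+/+ mice and -1.05, -1.13 and -0.89 in ikbkb+/+;P301S+ mice, so the groups did not overlap. The difference of 0.64 had p = 0.0286 in the exact permutation test, the smallest possible, and an adjusted p of 0.40 over 21 tests. For Lrp1 the ratio was 0.13 and -0.25 with the active kinase and 0.66, 1.08 and 0.79 in ikbkb+/+;P301S+ mice, a difference of -0.91 (exact permutation p = 0.1, the smallest possible, adjusted p = 0.42). For Apoe the tau difference was 1.45 (exact permutation p = 0.0571, adjusted p = 0.40). No member passed this test after adjustment.

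In the 7 other cell types with enough nuclei, 0 of 38 tests of a member passed in each of the 5 comparisons (edgeR). Of all genes in these types 0.0136% passed for tau, 0.00247% for the knockout and 0.0284% for the active kinase against P301S+ mice, and 0.0136% and 0.126% for the knockout and the active kinase against ikbkb+/+ mice, so 0 of 38 is near the background. An unadjusted p under 0.05 (edgeR) was found in 4 of the 38 for tau, beside 3.78% of all genes. For the knockout it was found in 7 against P301S+ and 7 against ikbkb+/+ mice, beside 8.24% and 6.73%. For the active kinase it was found in 1 and 2, beside 5.77% and 6.89%. DESeq2 called 0 as well. The lowest adjusted p was 0.282, for Lrp1 in the comparison of ikbkb-/-;P301S+ with ikbkb+/+;P301S+ mice. Apoe log2 fold changes there ran from -0.62 to 1.04 and those of Lrp1 from -0.15 to 0.72.

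The wider pathway was read from 5 further lists. Of 19 listed efflux genes and LXR-linked regulators, 15 could be tested in microglia, and in both comparisons of the active kinase 1 rose, none fell and 14 did not pass, where 1.51% of all genes passed against P301S+ and 3.78% against ikbkb+/+ mice. The gene was Rxrg, which encodes a retinoid X receptor, the family of partners of LXR. Rxrg was 219 and 228 CPM in the active kinase mice, 20.7, 6.58 and 33.4 in ikbkb+/+;P301S+, 11.4 and 4.11 in ikbkb-/-;P301S+ and 2.53, 3.60, 10.4 and 11.2 CPM in ikbkb+/+ mice. The active kinase mice were far above all others, by 3.23 ± 0.29 log2 units over P301S+ mice (edgeR, adjusted p = 6.41e-07). In the same comparison the list's median was -0.09, beside -0.01 over all genes. Its most abundant members in microglia, the corepressor gene Ncor1, the LDL receptor ligase gene Mylip and the nuclear receptor gene Ppard, did not pass in any comparison.

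Of 19 genes of sterol storage and turnover, 12 were tested in microglia, and 2 rose against ikbkb+/+ mice with the active kinase, none fell and 10 did not pass, where 3.78% of all genes passed. Against ikbkb+/+;P301S+ mice none of the 12 passed with the active kinase, where 1.51% of all genes passed. Osbpl1a, which encodes an oxysterol-binding protein, was 179 and 183 CPM with the active kinase and 91.3 to 120 CPM in ikbkb+/+ mice, 0.68 ± 0.16 higher on the log2 scale (edgeR, adjusted p = 0.0149). It was 129 to 135 CPM in ikbkb+/+;P301S+ and 121 and 157 CPM in ikbkb-/-;P301S+ mice. Vps13c, which encodes a lipid transfer protein, was 212 and 185 CPM against 112 to 129 CPM, 0.67 ± 0.18 higher on the log2 scale (edgeR, adjusted p = 0.0386). Vps13c was also 161, 153 and 247 CPM in ikbkb+/+;P301S+ mice, where it did not pass (0.65 ± 0.17, edgeR, adjusted p = 0.161). The list's median was 0.19 with the active kinase against ikbkb+/+ mice, beside -0.02 over all genes.

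Of the lipoprotein and receptor list 10 of 16, of the lipase and fatty acid list 9 of 17 and of the sterol synthesis list 9 of 21 genes were tested in microglia, and none passed in any comparison. Trem2, a lipid-sensing receptor gene of microglia, was at 0.24 for tau, and Mgll, which encodes monoacylglycerol lipase, at -0.03 on the log2 scale. In astrocytes no gene of the 5 lists passed. The 19 sterol synthesis genes tested there lay at a median log2 fold change of -0.26 for tau, with 2 of 19 above 0, beside a median of -0.003 over all genes. Their abundant members Msmo1 and Fdft1, which encode enzymes of cholesterol synthesis, were at -0.26 and -0.25. Msmo1 was 154 to 267 CPM in ikbkb+/+ and 152 to 176 CPM in ikbkb+/+;P301S+ mice, and Fdft1 122 to 156 and 101 to 125 CPM. The groups thus overlapped in both. Of the 19, 4 had an unadjusted p under 0.05 (edgeR), beside 4.97% of all genes.

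Over the 11 microglia-like sums, the 5 genes whose log2 CPM tracked Apoe most closely among 7046 genes were Tnfsf8 (Pearson r = 0.91), Galk2 (0.91), Myo5a (0.87), AU020206 (0.86) and Anapc15 (0.85). Those closest to Lpl were Psmd7 (0.94), Ctso (0.87), Trak1 (0.86), Tmem189 (0.86) and Csf1 (0.86). These are descriptions over 11 points that share genotype and depth with the members, and the genes were picked as the highest of all those compared.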

How the data were processed

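Nuclei of frozen cortex were sorted by DAPI and sequenced with the 10x 3′ v3 kit. The authors counted UMIs with Cell Ranger 3.1.0 on mm10, introns included, and deposited raw counts per gene and barcode, a matrix for each mouse. The submitters' processing notes also name Seurat 3.0. Here 112539 of the 114118 barcodes met the study's own limits (300 to 8000 genes, mitochondrial share up to 5%), and 9474 were removed as doublets by a simulation-based score at a rate of 0.8% per 1000 barcodes. Nuclei were clustered on 15 components of 2000 variable genes, without the members and the listed lipid genes, and clusters were named from fixed markers. Cells are not replicates, so counts were summed per mouse and type and tested with edgeR 4.0.16 (TMM, filterByExpr, quasi-likelihood, 1 term per genotype, all 11 mice), with Benjamini-Hochberg adjustment over all genes; a gene passed at an adjusted p under 0.05 and a log2 change over 0.1. Microglia-like sums held 386265 to 1656020 UMIs and astrocyte-like sums 1991869 to 3705150. Replicates are separate mice. Single values were compared by exact two-sided permutation tests over mice. Fits were tested on simulated data. The members, lists and tests were chosen with earlier results of these data known. All 7 members are named, with every list gene that passed in microglia or astrocytes, examples from the 3 most abundant tested genes of each list and type, and the 5 genes most like Apoe and Lpl. Coordinates are from GENCODE M21 and starts and promoter sequence from RefSeq (GRCm38.p6), which matched 5 of the 7 members; Lpl and Abcg1 were not matched. DESeq2 1.42.0, other scalings and filters, breeding line, age, a replicate block, left-out mice and other sets of nuclei were tried as alternatives.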

Additional observations from a re-analysis of the deposited data

Results flagged for a closer look

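Before correction for the number of tests, Soat1 differed between cell types in its change with tau: the log2 change from ikbkb+/+ to ikbkb+/+;P301S+ mice was 0.64 larger in microglia-like than in astrocyte-like nuclei, with no overlap between the 3 and the 4 mice. The exact permutation test over mice gave p = 0.0286, the smallest it can give, and an adjusted p of 0.40 over 21 tests, so the difference failed the correction. Over the 8 alternatives for this difference the adjusted p ran from 0.40 to 0.636 and the sign was kept.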

How the results depend on the processing

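Limits first: groups held 2 to 4 mice, and 2 against 3 mice cannot go below p = 0.1 in an exact test. The Cre allele was present in all ikbkb-/-;P301S+ and ikbkbCA;P301S+ mice and in no control. All ikbkb-/-;P301S+ mice came from the floxed line and all ikbkbCA;P301S+ mice from the active line. The ikbkb-/-;P301S+ mice, at 8.39 and 9.15 months, were younger than every ikbkb+/+ mouse (9.8 to 10.85 months). Cre thus cannot be told apart from either altered genotype, nor age from the knockout against ikbkb+/+ mice. Lpl and Nr1h3 rested on few UMIs.

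Each count of members that passed was recomputed under 26 alternatives in microglia, 25 in astrocytes and 23 in the other cell types. In microglia the 2 members called against ikbkb+/+ mice with active IKKβ, Lrp1 and Soat1, passed in all 26, with Lrp1 from -1.07 to -0.72 and Soat1 from 0.88 to 1.21. With no filter on low counts edgeR tested 20595 genes, called 122 rather than 4 of all genes for tau and 344 rather than 136 for the active kinase against P301S+ mice, and passed 3 members for tau, 1 for the knockout and 3 for the active kinase against P301S+ mice, 2 for the knockout and 4 for the active kinase against ikbkb+/+ mice, and 2 tests in the other cell types. It then called 37 and 36 rather than 0 of all genes for the knockout against P301S+ and ikbkb+/+ mice, and 554 rather than 339 for the active kinase against ikbkb+/+ mice. The cause was not tested. With contrasts within breeding lines 3 members passed for tau and 0 for the active kinase against P301S+ mice, and 76 and 73 of all genes. With breeding line as a covariate 0 members passed for the active kinase against P301S+ mice, and 30 and 73 of all genes passed in these comparisons, with 191 rather than 339 against ikbkb+/+ mice. Without nuclei with border macrophage UMIs 1 member, Apoe, passed for tau. Leaving out 1 mouse at a time gave 0 to 1 members for tau and 0 to 2 for the active kinase against P301S+ mice. The calls of all genes then ran from 0, without P301S+ replicate 3, to 28, without P301S+ replicate 1, for tau, and for the active kinase from 64, without P301S+ replicate 2, to 213, without P301S+ replicate 3; they were 70 without active kinase replicate 2, which also lowered the calls against ikbkb+/+ mice to 174. Thinning nuclei to 1000 UMIs gave 7 and 201 calls for tau and for the active kinase against ikbkb+/+ mice. For tau, 8 genes were called on library totals, 10 from the compared libraries alone, 2 with doublets kept, and 10 and 14 without nuclei with UMIs of border macrophages or other glia. Other glia UMIs means 2 or more UMIs of astrocyte markers in microglia, or of microglia markers in astrocytes. No oligodendrocyte markers were used. In microglia this left out 347 nuclei of ikbkb+/+, 342 of ikbkb+/+;P301S+, 328 of ikbkb-/-;P301S+ and 494 of ikbkbCA;P301S+ mice. In astrocytes the members' counts stayed at 0 throughout, while all genes called rose from 0 to between 90 and 135 with no filter and DESeq2 called 0 to 2; without active kinase replicate 1, 32 were called against ikbkb+/+ mice. The other alternatives changed no count of members. The 63 share and ratio tests passed under none, with a lowest adjusted p of 0.40, and among the 55 whose values are not given above 62 of 401 recomputed differences changed sign. The Abca1 share of astrocytes against P301S+ mice turned to 0.0612 (500 UMIs) and 2.46 points (no thinning) for the knockout and to 2.92 points (no thinning) for the active kinase.

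Whether the title numbers that mice of different genotypes share pair them was not settled. Deviations from the genotype means correlated at a median of 0.005 for equal and -0.012 for other numbers. In a group of 2 mice these deviations are exact opposites, so this check cannot exclude pairing. A replicate block on these numbers left 0 members for tau, 1 for the active kinase against P301S+ and 2 against ikbkb+/+ mice, and changed no call.

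Of the 1511 recomputed values of 60 log2 fold changes of the members in microglia and astrocytes, 80 values of 29 fold changes had the opposite sign, 37 of them with 1 mouse left out. None of these 80 passed (lowest adjusted p of 0.688), and the fold changes that passed as reported kept their sign. The values as reported stand in parentheses, except beside the ranges with 1 mouse left out, and the causes were not tested. For the knockout against P301S+ mice in microglia, Lpl was at -0.58 and Abcg1 at 0.39 with all mice.

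In microglia, for tau, Abca1 (0.00770) was -0.000632 in DESeq2, -0.0510 with the replicate block, -0.0106 without border macrophage UMIs and -0.0131 without other glia UMIs, and with 1 mouse left out the lowest and highest values were Abca1 at -0.30 and 0.15 and Lrp1 at -0.22 and 0.0431. In microglia, for the knockout against P301S+ mice, Abca1 (-0.0465) was 0.20 with line as a covariate, 0.27 within lines, 0.31 with age as a covariate and 0.0749 without other glia UMIs, and Soat1 (-0.0306) was 0.17 with line as a covariate, 0.27 within lines, 0.27 with age as a covariate, 0.0758 without border macrophage UMIs and 0.00379 without other glia UMIs, and with 1 mouse left out the lowest and highest values were Lpl at -4.23 and 0.0284, Abca1 at -0.27 and 0.27, Abcg1 at -0.0962 and 0.64 and Soat1 at -0.14 and 0.27. In microglia, for the active kinase against P301S+ mice, Soat1 (0.28) was -0.0112 within lines. In microglia, for the knockout against ikbkb+/+ mice, Abca1 (-0.0388) was 0.27 with line as a covariate, 0.21 within lines, 0.33 with age as a covariate and 0.0619 without other glia UMIs, and Abcg1 (0.22) was -0.0471 with age as a covariate, and with 1 mouse left out the lowest and highest values were Lpl at -0.82 and 3.46, Abca1 at -0.26 and 0.14 and Abcg1 at -0.26 and 0.48. In microglia, for the active kinase against ikbkb+/+ mice, with 1 mouse left out the lowest and highest values were Apoe at -0.68 and 1.11.

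In astrocytes, for tau, Lrp1 (-0.0196) was 0.0216 on library totals, 0.0161 with the replicate block and 0.11 in thinned nuclei, and Soat1 (0.0318) was -0.000200 with doublets kept, and with 1 mouse left out the lowest and highest values were Apoe at -0.12 and 0.22, Lrp1 at -0.0700 and 0.0694 and Soat1 at -0.11 and 0.11. In astrocytes, for the knockout against P301S+ mice, Apoe (-0.27) was 0.12 with age as a covariate, and Soat1 (-0.17) was 0.0228 with age as a covariate, and Nr1h3 (-0.22) was 0.0454 with line as a covariate, 0.15 within lines and 0.16 with age as a covariate, and with 1 mouse left out the lowest and highest values were Abcg1 at -0.37 and 0.18 and Nr1h3 at -0.48 and 0.16. In astrocytes, for the active kinase against P301S+ mice, Abcg1 (-0.27) was 0.0639 with doublets kept, and Soat1 (0.0243) was -0.0186 on library totals, -0.0383 with line as a covariate, -0.21 within lines, -0.0124 with age as a covariate and -0.000711 without other glia UMIs, and Nr1h3 (0.32) was -0.0976 within lines, and with 1 mouse left out the lowest and highest values were Lrp1 at -0.0720 and 0.31 and Soat1 at -0.0595 and 0.17. In astrocytes, for the knockout against ikbkb+/+ mice, Apoe (-0.19) was 0.28 with age as a covariate, and Abca1 (0.0575) was -0.0359 with line as a covariate, -0.0999 within lines and -0.0230 with age as a covariate, and Soat1 (-0.14) was 0.0755 with age as a covariate, and with 1 mouse left out the lowest and highest values were Abca1 at -0.00346 and 0.15. In astrocytes, for the active kinase against ikbkb+/+ mice, Apoe (-0.17) was 0.10 within lines, and Abca1 (0.00676) was -0.12 in thinned nuclei and -0.00514 without other glia UMIs, and with 1 mouse left out the lowest and highest values were Apoe at -0.45 and 0.0586, Abca1 at -0.0536 and 0.0936, Lrp1 at -0.0934 and 0.29 and Nr1h3 at -0.35 and 0.16.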
